A study of Mus musculus with 6 samples.

Results

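The T-cell costimulatory and checkpoint ligands are 10 genes of macrophages and other antigen-presenting cells, out of 55335 gene identifiers in the expression table. The choice was made by name, as a group with a shared role, but with earlier results of these data known. The genes were *Cd80*, *Cd86*, *Icosl*, *Cd40*, *Cd274*, *Pdcd1lg2*, *Vsir*, *Lgals9*, *Havcr2* and *Cd200r1*. Of these, *Cd40*, *Havcr2* and *Cd200r1* encode receptors and the others encode ligands or proteins that can act as both. The RNA came from bone marrow-derived macrophages (BMDMs), grown from mouse bone marrow for 7 days with 25 ng/ml of the growth factor M-CSF and *Cd177* WT in every culture. Neutrophils had been separated with magnetic beads from spinal cord lesions at 3 days post-injury (dpi) and were kept with the BMDMs for 24 h, after which cells without the neutrophil surface protein Ly6G were sorted. In 3 libraries, labelled WT, the neutrophils came from *Cd177* WT mice, and in 3 libraries, labelled KO, from mice with a germline *Cd177* knockout. CD177 is a surface glycoprotein of neutrophils, and the comparison asks how its loss in the neutrophils bears on the macrophages beside them.

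A T cell that recognises antigen on a macrophage also reads a second set of surface signals from it. CD80 and CD86 bind CD28 to promote activation and CTLA-4 to restrain it, ICOS ligand sustains helper T cells through ICOS, and CD40 receives a signal back from the T cell that licenses the presenting cell. PD-L1 and PD-L2 engage PD-1, VISTA and galectin-9 act as further inhibitory molecules, TIM-3 is one of the receptors described for galectin-9, and CD200R1 is an inhibitory receptor of myeloid cells. Several of these genes, PD-L1 among them, are known to be inducible by interferons in macrophages.

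For that reason the bases before the start of 4 genes are printed, 2 from genes that were lower in the libraries labelled KO (*Cd274* and *Lgals9*) and 2 from genes that were higher (*Icosl* and *Vsir*). They are RefSeq sequences of the build GRCm38.p6, read 5′ to 3′ on the strand of the gene, and bases inside the annotated gene were left off. Capitals mark matches to the core of the interferon-stimulated response element.
Cd274, chr19:29367188-29367437, plus strand: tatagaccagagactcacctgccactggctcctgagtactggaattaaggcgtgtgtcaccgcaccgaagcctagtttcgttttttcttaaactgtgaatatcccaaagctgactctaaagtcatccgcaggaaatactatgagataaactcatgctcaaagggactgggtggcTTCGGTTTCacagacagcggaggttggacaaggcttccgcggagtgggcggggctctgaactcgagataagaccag
Lgals9, chr11:78984947-78985174, minus strand: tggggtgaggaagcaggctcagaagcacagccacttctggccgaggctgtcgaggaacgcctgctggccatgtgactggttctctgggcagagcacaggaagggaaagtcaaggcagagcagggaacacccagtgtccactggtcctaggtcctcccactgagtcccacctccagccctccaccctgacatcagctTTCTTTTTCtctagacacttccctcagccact
Icosl, chr10:78069118-78069301, plus strand: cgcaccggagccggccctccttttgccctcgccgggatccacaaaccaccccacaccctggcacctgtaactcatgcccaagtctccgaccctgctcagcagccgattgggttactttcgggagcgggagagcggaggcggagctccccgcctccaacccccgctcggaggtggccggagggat
Vsir, chr10:60346601-60346850, plus strand: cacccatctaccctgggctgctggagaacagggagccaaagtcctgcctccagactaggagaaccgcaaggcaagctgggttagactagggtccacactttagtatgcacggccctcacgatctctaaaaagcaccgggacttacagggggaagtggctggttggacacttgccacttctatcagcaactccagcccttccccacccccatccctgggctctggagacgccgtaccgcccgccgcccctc
The core was searched as TTCNNTTTC on both strands in the 250 bases before each RefSeq start. *Cd274* held 1 match at positions -76 to -68 (TTCGGTTTC), and *Lgals9* held 1 at positions -54 to -46 (TTCTTTTTC), counted from the start. Promoters of 7 of the 10 members were in the sequence table (*Cd86*, *Cd40* and *Cd200r1* were not), and the other 5 held no such match. These 5 were *Icosl*, *Vsir*, *Cd80*, *Pdcd1lg2* and *Havcr2*. The *Cd80* window lay wholly inside the annotated gene and ended 3372 bases into it. The bases before the annotated *Cd80* start were therefore not searched. *Havcr2*, which is not printed, was also lower in the libraries labelled KO, so a match did not go with every lower gene. The 2 lower genes printed are those with a match, so the printed set does not show how matches went with direction. The gamma-activated site TTCNNNGAA and the NF-kB core GGNNTTTCC (both strands as well) were in none of the 7, so no match overlapped another. Among 32851 promoter windows of the same length, 7.13% held the interferon motif, 7.02% the gamma-activated site and 4.93% the NF-kB core, so a match is a description of the sequence only.

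Expression was deposited as FPKM (fragments per kilobase of transcript, normalised to library size), which corrects for gene length, so levels can be set side by side between genes. The libraries implied depths of 17600000 to 20300000 fragments, and their values correlated at 0.967 to 0.985 among libraries labelled WT, at 0.977 to 0.984 among those labelled KO and at 0.905 to 0.917 between the groups. *Cd177* itself ran against the labels. It was listed at 0.545, 0.309 and 0.521 FPKM in WT 1, 2 and 3 and at 1.79, 1.84 and 2.28 FPKM in KO 1, 2 and 3 (log2 fold change 1.37, limma, adjusted p = 0.000827), so the groups are named by their labels throughout. Macrophage markers were high in every library, with a summed level of 8245 to 9950 FPKM under the WT label and 9475 to 10470 FPKM under the KO label. The largest part of each sum was *Lyz2*, at 4462 to 5731 FPKM under the WT label and 5881 to 6588 FPKM under the KO label. Of the 11, 3 rose (*Adgre1*, *Mertk* and *C1qa*) and 2 fell (*Cd14* and *Fcgr1*), beside 27.1% and 10.5% of all tested genes. The mean of *Cd14* went from 1010 to 99.4 FPKM and that of *Fcgr1* from 121.2 to 33.8 FPKM. With libraries scaled by the median of gene ratios, *Adgre1* went from an adjusted p of 0.0449 to 0.516 (limma). *Mertk* went from 0.0166 to 0.0532. Neither stayed under 0.05 without KO 1 or without KO 2. Neutrophil markers were 16 genes, of which 13 were tested. In this list 11 rose and 1 fell, beside the same 27.1% and 10.5% of all tested genes. Among the rises, *Cd177*, *Cxcr2* and *Cebpe* reached the minimum mean of 0.5 FPKM for the test only through the libraries labelled KO. Their means under the WT label were 0.458, 0.382 and 0.314 FPKM. The 16 markers summed to 202.4 to 262.1 FPKM in the libraries labelled WT and to 558.2 to 573.9 FPKM in those labelled KO. *Ly6g*, the gene of the sorted-out protein, was listed at 0 in the 3 libraries labelled WT and at 0.403 to 0.660 FPKM in those labelled KO. These neutrophil marker levels moved with every group difference given here, and their part in the results was not tested. The part of RNA from cells other than macrophages, and fewer cells of a type against less RNA per cell, cannot be told apart in bulk RNA.

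Of the 10 genes, 9 had a mean of at least 0.5 FPKM and were tested, and the largest difference was in the PD-L1 gene. Against the libraries labelled WT, those labelled KO had lower *Cd274*, *Cd86*, *Cd40*, *Havcr2* and *Lgals9* and higher *Icosl* and *Vsir*, whereas *Cd80* and *Cd200r1* did not pass the test. Of the 9, 5 fell, where 10.5% of all 13367 tested genes fell, and 2 rose, where 27.1% of all tested genes did. The 5 include *Cd40*, which reached the minimum only through the libraries labelled WT (mean 2.43 FPKM, beside 0.478 FPKM under the KO label). The test was limma on log2(FPKM + 0.5), with p-values adjusted by Benjamini-Hochberg over all tested genes and called under 0.05. The median log2 fold change of the 9 genes was -1.09, and that of all tested genes was 0.19. All libraries of one label were above or below all of the other in 7 of these 9 genes, and so were 51.9% of all tested genes. Of all calls, 71.99% were rises. When the libraries were instead scaled by the median of gene ratios, which brought the median of all genes to about 0, 16.1% of genes rose and 16.6% fell, so that 49.33% of calls were rises (55.72% under quantile normalization). Each tested member had the same direction under both. Neither the labels nor the methods say that the libraries of a group came from separate cultures or animals, so the p-values measure the spread between these libraries, which may be technical.

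**Figure D1:**
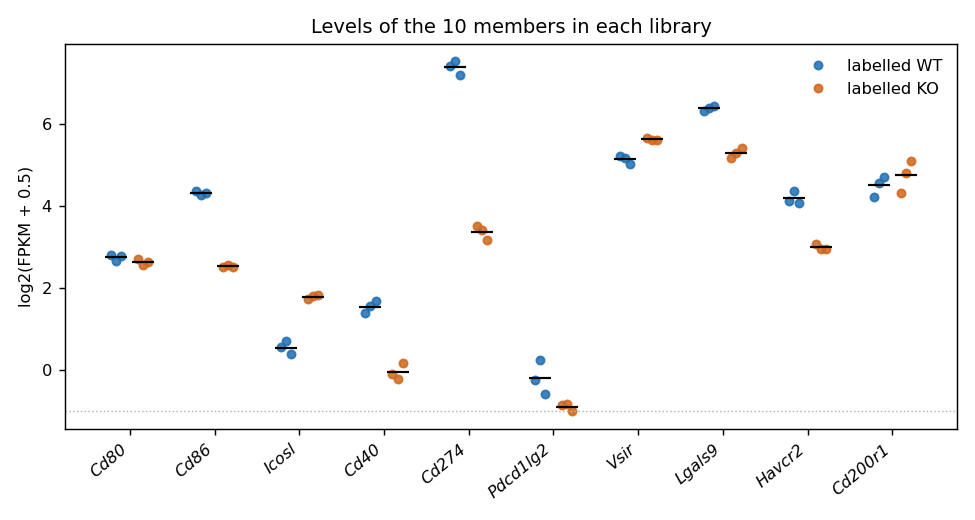
Levels of the 10 genes as log2(FPKM + 0.5), 1 point per library (3 labelled WT, 3 labelled KO) with a bar at the group mean, and a dotted line where FPKM is 0. *Cd274* has the widest gap between the groups, from a mean of 164.9 to 9.82 FPKM, while the points of *Cd80* and *Cd200r1* overlap.

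The CD28 ligands parted. *Cd86* (ENSMUSG00000022901, chromosome 16, 36603869 to 36666081, minus strand, GENCODE M21 on GRCm38, as for the positions that follow) encodes the CD28 ligand that resting and activated macrophages display. Its levels were 19.99, 18.74 and 19.46 FPKM in WT 1, 2 and 3 and 5.20, 5.42 and 5.24 FPKM in KO 1, 2 and 3. The groups lay far apart, with every library labelled KO below every library labelled WT. *Cd86* fell by 1.78 on the log2 scale (SE 0.08, 95% confidence interval -1.97 to -1.60, limma, adjusted p = 1.2e-05), and the mean went from 19.4 ± 0.624 to 5.29 ± 0.118 FPKM (SD, n = 3 each), 3.67 times lower. Among all tested genes this was rank 246 of 13367 from the most negative fold change.

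*Cd80* (ENSMUSG00000075122, chromosome 16, 38455561 to 38496335, plus strand) encodes the other CD28 ligand, which binds CTLA-4 more strongly than CD86 does. It was at 6.42, 5.83 and 6.33 FPKM in WT 1, 2 and 3 and at 6.03, 5.44 and 5.69 FPKM in KO 1, 2 and 3. The groups overlapped, because KO 1 lay above WT 2. The log2 difference of -0.11 did not pass the test (SE 0.09, 95% confidence interval -0.32 to 0.11, limma, adjusted p = 0.39). Under scaling by the median of ratios the difference was -0.31 and passed (adjusted p = 0.0413).

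The ratio of *Cd86* to *Cd80* within a library does not depend on how libraries are scaled to each other. It was 3.11, 3.21 and 3.08 in WT 1, 2 and 3 and 0.863, 0.996 and 0.921 in KO 1, 2 and 3, so *Cd86* was the more abundant of the pair in each library labelled WT and slightly the less abundant in each library labelled KO. The mean log2 ratio differed by -1.76 (exact permutation test, two-sided, p = 0.1, which is the smallest p that 3 against 3 libraries allow, and 0.167 after Benjamini-Hochberg adjustment over the 5 ratios computed). Added together, the pair stood at 24.6 to 26.4 FPKM in the libraries labelled WT and at 10.9 to 11.2 FPKM in those labelled KO, and *Cd86* made up 75.5% to 76.3% and 46.3% to 49.9% of these sums. This sum and share were chosen after the values were seen and carry no test.

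*Icosl* (ENSMUSG00000000732, chromosome 10, 78069302 to 78083913, plus strand), the gene of the ICOS ligand, went the other way from *Cd86*. It was listed at 0.980, 1.13 and 0.804 FPKM in WT 1, 2 and 3 and at 2.82, 3.00 and 3.05 FPKM in KO 1, 2 and 3. All libraries labelled KO were above all those labelled WT, although the level was low in both. The rise was 1.24 on the log2 scale (SE 0.12, 95% confidence interval 0.95 to 1.53, limma, adjusted p = 0.000434), from a mean of 0.970 ± 0.162 to 2.96 ± 0.123 FPKM (SD, n = 3 each).

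*Cd40* (ENSMUSG00000017652, chromosome 2, 165055627 to 165072948, plus strand) encodes the receptor through which helper T cells license macrophages. Its levels were 2.11, 2.47 and 2.70 FPKM in WT 1, 2 and 3 and 0.434, 0.366 and 0.634 FPKM in KO 1, 2 and 3. The groups did not overlap, and the mean of the libraries labelled KO was itself under the minimum of 0.5 FPKM that the mean of all 6 had to reach. *Cd40* fell by 1.59 on the log2 scale (SE 0.15, 95% confidence interval -1.95 to -1.22, limma, adjusted p = 0.000394). The pseudocount understates a change at such low values, and the means of 2.43 ± 0.297 and 0.478 ± 0.139 FPKM (SD, n = 3 each) stood 5.08 times apart.

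Per unit of *Cd86*, *Cd40* stood at 0.106, 0.132 and 0.139 in WT 1, 2 and 3 and at 0.0836, 0.0675 and 0.121 in KO 1, 2 and 3. The groups overlapped, since KO 3 lay above WT 1, and the mean log2 ratio differed by -0.50 (exact permutation test, two-sided, p = 0.2, adjusted p = 0.25). With a pseudocount of 0.5 on both genes the sign turned, to 0.20.

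*Cd274* (ENSMUSG00000016496, chromosome 19, 29367455 to 29388095, plus strand) encodes PD-L1, the main PD-1 ligand of macrophages and the gene whose promoter opens the sequences above. It was at 167.7, 181.8 and 145.2 FPKM in WT 1, 2 and 3 and at 10.93, 10.08 and 8.45 FPKM in KO 1, 2 and 3. The lowest library labelled WT was still far above the highest labelled KO. The log2 fold change of *Cd274* was -4.00 (SE 0.13, 95% confidence interval -4.31 to -3.70, limma, adjusted p = 3.55e-06). The mean went from 164.9 ± 18.5 to 9.82 ± 1.26 FPKM (SD, n = 3 each), a level 16.8 times lower. By level it ranked 242 of the 13367 tested genes by the mean under the WT label and 4430 by that under the KO label, and by fold change it was rank 37 from the most negative. An antisense gene inside its span, AC119228.1, was listed at 0.468 to 0.614 FPKM in the libraries labelled WT and at 0.078 to 0.56 FPKM in those labelled KO. Whether reads were assigned by strand is not given in the sources used here, and these levels were small beside those of *Cd274*.

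*Pdcd1lg2* (ENSMUSG00000016498, chromosome 19, 29410919 to 29471161, plus strand) encodes PD-L2, the second PD-1 ligand, and lies next to *Cd274*. It was listed at 0.349, 0.684 and 0.169 FPKM in WT 1, 2 and 3 and at 0.0577, 0.0674 and 0 FPKM in KO 1, 2 and 3. The groups did not overlap, yet 1 fragment on its longest transcript of 1729 bases is worth 0.0285 to 0.0328 FPKM, so the values of the libraries labelled KO stand for a few fragments at most. Its mean of 0.221 FPKM over the 6 libraries was under the minimum for the test. An exact permutation test of its FPKM gave p = 0.1 (two-sided, the smallest possible with 3 against 3), and limma without the minimum gave a log2 difference of -0.70 (adjusted p = 0.0837). The antisense gene A930007I19Rik overlaps its end and was listed at 0.848, 1.22 and 1.51 FPKM in WT 1, 2 and 3 and at 0.13, 0.197 and 0.131 FPKM in KO 1, 2 and 3. That gene was listed higher than *Pdcd1lg2* itself in each library. The pair shares positions 29464750 to 29471161, and reads from exons in that stretch cannot be told apart without strand. How much of the listed *Pdcd1lg2* level came from there was not determined.

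Relative to the CD28 ligand *Cd86*, *Cd274* stood at 8.39, 9.70 and 7.46 in WT 1, 2 and 3 and at 2.102, 1.86 and 1.61 in KO 1, 2 and 3. The PD-L1 transcript thus outnumbered that of *Cd86* per length in each library, by less in those labelled KO (log2 difference -2.20, exact permutation test, two-sided, p = 0.1, the smallest possible, adjusted p = 0.167). Per summed *Cd80* and *Cd86* it was 5.63 to 7.40 in the libraries labelled WT and 0.773 to 0.974 in those labelled KO, a quantity chosen after the values were seen. No ratio to *Pdcd1lg2* was formed, as that gene is listed at 0 in KO 3.

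**Figure D2:**
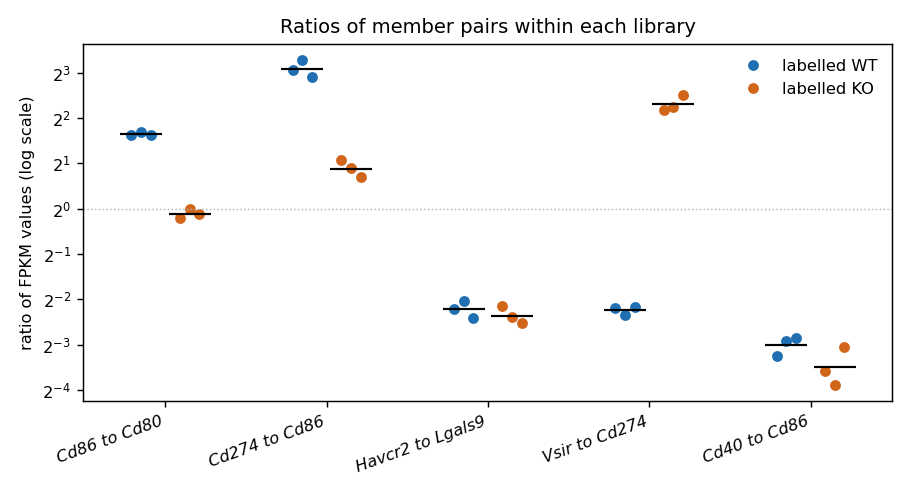
Ratios of FPKM values between pairs of the genes within each library, on a log axis with base 2, with 1 point per library and a bar at the geometric mean of each group. *Vsir* to *Cd274* moves from about 0.2 to about 5, *Cd86* to *Cd80* crosses the dotted line of equal levels, and the points of *Havcr2* to *Lgals9* and *Cd40* to *Cd86* overlap between groups.

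The genes around *Cd274* were set beside it. *Insl6*, an insulin-like hormone gene whose start lies upstream (position -42.1 kb from the *Cd274* start), fell by 0.91 on the log2 scale, from 8.97 ± 1.84 to 4.51 ± 0.674 FPKM (limma, adjusted p = 0.00596). *Jak2*, the kinase gene that serves cytokine receptors (position -115.6 kb), fell by 0.58, from 14.65 ± 1.72 to 9.63 ± 0.326 FPKM (adjusted p = 0.00621). *Ric1* (154.8 kb) fell by 1.16, from 6.96 ± 2.80 to 2.67 ± 0.199 FPKM (adjusted p = 0.0148). The libraries of these 3 genes did not overlap between groups, and each difference was smaller than that of *Cd274*. *Ermp1* (281 kb) rose by 0.61 on the log2 scale (adjusted p = 0.0204), a call that was lost with no filter (adjusted p = 0.0544), under scaling by the median of ratios (0.43, adjusted p = 0.0713), under quantile normalization (0.36, adjusted p = 0.0945), and without WT 1 (adjusted p = 0.068), KO 1 (0.0543), KO 2 (0.0635) or KO 3 (0.0642). *Rcl1* (position -266.1 kb) did not pass the test, with a log2 difference of 0.10 (adjusted p = 0.622), which turned to -0.11 under the scaling by ratios and to -0.04 without WT 2. *Mlana* (330.4 kb) was listed at 0 in every library.

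**Figure D3:**
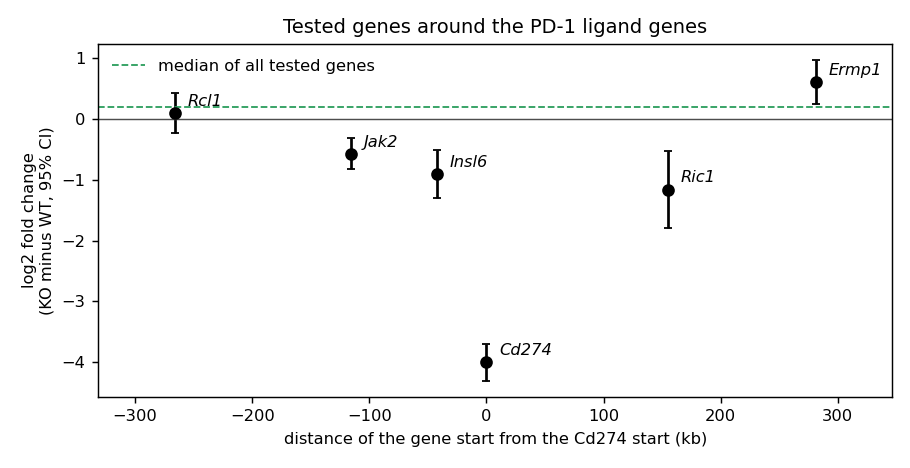
Log2 fold change (labelled KO minus labelled WT, with 95% confidence intervals) of the tested genes around *Cd274*, against the distance of each gene start from that of *Cd274* in kb. *Cd274* stands at -4.00, *Jak2*, *Insl6* and *Ric1* lie between -0.58 and -1.16, and *Rcl1* and *Ermp1* lie above 0.

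*Vsir* (ENSMUSG00000020101, chromosome 10, 60346851 to 60372684, plus strand) encodes VISTA, an inhibitory member of the B7 family that is abundant on myeloid cells. Its levels were 36.82, 35.51 and 32.07 FPKM in WT 1, 2 and 3 and 49.76, 48.01 and 48.31 FPKM in KO 1, 2 and 3. Each library labelled KO was above each labelled WT, with a gap wider than the spread in either group. *Vsir* rose by 0.48 on the log2 scale (SE 0.08, 95% confidence interval 0.28 to 0.68, limma, adjusted p = 0.00445), from a mean of 34.8 ± 2.45 to 48.7 ± 0.932 FPKM (SD, n = 3 each). Under scaling by the median of ratios the rise was 0.27 (adjusted p = 0.0406). It lies within *Cdh23* on the opposite strand, which was listed at 0.043 to 0.067 FPKM.

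Per unit of *Cd274*, *Vsir* stood at 0.220, 0.195 and 0.221 in WT 1, 2 and 3 and at 4.55, 4.76 and 5.72 in KO 1, 2 and 3. *Cd274* was therefore the more abundant inhibitory ligand transcript in each library labelled WT, and *Vsir* in each library labelled KO. The mean log2 ratio differed by 4.56 (exact permutation test, two-sided, p = 0.1, the smallest possible, adjusted p = 0.167).

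*Lgals9* (ENSMUSG00000001123, chromosome 11, 78962974 to 78984946, minus strand) encodes galectin-9, a secreted sugar-binding protein and the other gene whose printed promoter holds the interferon motif. It was at 78.41, 82.26 and 85.88 FPKM in WT 1, 2 and 3 and at 35.34, 38.31 and 41.64 FPKM in KO 1, 2 and 3. The groups lay well apart. *Lgals9* fell by 1.09 on the log2 scale (SE 0.09, 95% confidence interval -1.30 to -0.88, limma, adjusted p = 0.000202), and its mean went from 82.2 ± 3.74 to 38.4 ± 3.15 FPKM (SD, n = 3 each).

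*Havcr2* (ENSMUSG00000020399, chromosome 11, 46454935 to 46481255, plus strand) encodes TIM-3, a checkpoint receptor that macrophages also carry. It was at 16.88, 20.05 and 16.13 FPKM in WT 1, 2 and 3 and at 7.92, 7.27 and 7.23 FPKM in KO 1, 2 and 3. All libraries labelled KO were below all those labelled WT. *Havcr2* fell by 1.19 on the log2 scale (SE 0.11, 95% confidence interval -1.44 to -0.93, limma, adjusted p = 0.000297), from a mean of 17.7 ± 2.08 to 7.47 ± 0.392 FPKM (SD, n = 3 each).

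The ratio of *Havcr2* to *Lgals9* was 0.215, 0.244 and 0.188 in WT 1, 2 and 3 and 0.224, 0.190 and 0.174 in KO 1, 2 and 3. The groups overlapped, and the mean log2 ratio differed by -0.14 (exact permutation test, two-sided, p = 0.5, adjusted p = 0.5). Leaving out 1 library moved this between -0.05 (without WT 2) and -0.24 (without KO 1). A p of this size from 3 against 3 libraries does not show that the ratio was equal.

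Among relatives of these genes, *Lgals1* (galectin-1) was higher by 0.55 on the log2 scale (787.5 ± 118.4 to 1143 ± 40.5 FPKM, limma, adjusted p = 0.0132). That call was lost with no filter (adjusted p = 0.0796), under scaling by the median of ratios (0.33, adjusted p = 0.104), and without WT 1 (adjusted p = 0.051) or KO 2 (0.0525). *Lgals3* (galectin-3) fell by 0.63, from 1348 ± 265.5 to 857.8 ± 64.4 FPKM (adjusted p = 0.0194), and lost its call with no filter (0.0923) and without WT 1 (0.0635), KO 1 (0.076) or KO 2 (0.0609). *Lgals8* (galectin-8) overlapped between groups, with a log2 difference of -0.41 (adjusted p = 0.0649). It passed under scaling by the median of ratios (-0.62, adjusted p = 0.0145), under upper-quartile scaling (-0.50, adjusted p = 0.0372) and without WT 3 (-0.54, adjusted p = 0.0114). *Timd4*, a relative of *Havcr2*, was at 0.548 ± 0.133 and 0.607 ± 0.258 FPKM and did not pass (0.06, adjusted p = 0.833, with the sign turned under the scaling by ratios and without WT 1 or KO 1). Among the galectins the sign of the difference was positive for *Lgals1* and negative for *Lgals3*, *Lgals8* and *Lgals9* under each scaling.

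*Cd200r1* (ENSMUSG00000022667, chromosome 16, 44765736 to 44794978, plus strand) encodes the receptor by which CD200 on neighbouring cells quiets myeloid cells. It was at 17.97, 23.18 and 25.64 FPKM in WT 1, 2 and 3 and at 19.48, 27.26 and 33.78 FPKM in KO 1, 2 and 3. The groups overlapped widely, and the standard error of its difference was the largest of the 9 tested genes. The log2 difference of 0.24 did not pass the test (SE 0.22, 95% confidence interval -0.28 to 0.77, limma, adjusted p = 0.42). Leaving out 1 library moved it between 0.06 (without KO 3) and 0.45 (without KO 1), and scaling by the median of ratios gave 0.03, none of which passed. Its paralog *Cd200r4*, an activating-type receptor of the same gene cluster, was at 13.87, 15.98 and 18.48 FPKM in WT 1, 2 and 3 and at 10.91, 9.32 and 12.42 FPKM in KO 1, 2 and 3. It fell by 0.54 on the log2 scale (limma, adjusted p = 0.0249), a call lost with no filter (adjusted p = 0.056) and without WT 2 (0.0647), KO 1 (0.0719) or KO 2 (0.0833). The genes of this cluster are close in sequence, and how reads shared between them were counted is not given in the sources used here, so their levels are uncertain.

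**Figure D4:**
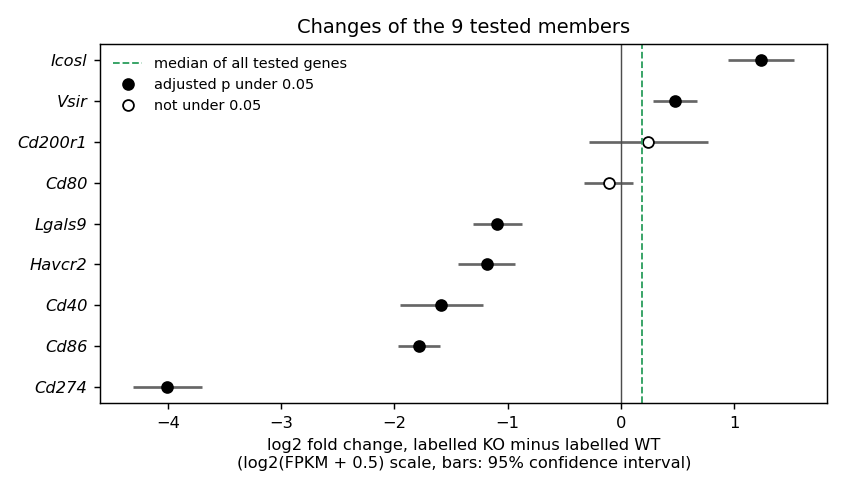
Log2 fold change of the 9 tested genes on the log2(FPKM + 0.5) scale, labelled KO minus labelled WT, with 95% confidence intervals, where filled points have an adjusted p-value under 0.05 and the dashed line marks the median of all tested genes (0.19). *Icosl* and *Vsir* lie above 0, *Lgals9*, *Havcr2*, *Cd40*, *Cd86* and *Cd274* below it, and the intervals of *Cd80* and *Cd200r1* hold 0.

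The order of the genes by level also differed. In the libraries labelled WT it ran from *Cd274* (164.9 FPKM) through *Lgals9* (82.2), *Vsir* (34.8), *Cd200r1* (22.3), *Cd86* (19.4), *Havcr2* (17.7), *Cd80* (6.20), *Cd40* (2.43) and *Icosl* (0.970) to *Pdcd1lg2* (0.401). *Cd200r1*, *Cd86* and *Havcr2* overlapped there, so their order does not exceed their spread. In the libraries labelled KO it ran from *Vsir* (48.7) through *Lgals9* (38.4), *Cd200r1* (26.8), *Cd274* (9.82), *Havcr2* (7.47), *Cd80* (5.72), *Cd86* (5.29) and *Icosl* (2.96) to *Cd40* (0.478) and *Pdcd1lg2* (0.0417). *Cd80* and *Cd86* were close in these libraries, with *Cd86* below *Cd80* in each.

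Other genes of the same kind of signalling, a list of 26 drawn up from general knowledge, moved in both directions. Of the 18 that were tested, 8 fell and 3 rose, beside 10.5% and 27.1% of all tested genes, and 7 did not pass. Their median log2 fold change was -0.21, and the labels were without overlap in 13 of the 18, beside the same 51.9%. These counts and the median include *Tnfsf4*, which reached the minimum for the test only through the libraries labelled WT. With a filter of at least 1 FPKM, which leaves it out, 7 fell and 3 rose. Without WT 1, 4 of the list fell.

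Ligands of activating receptors were among the genes that fell and among those that rose. *Tnfsf4*, the gene of OX40 ligand, was listed at 1.08, 1.35 and 0.575 FPKM in WT 1, 2 and 3 and at 0 in KO 1, 2 and 3, so neither a fold change nor a p-value is given. It reached the minimum for the test only through the libraries labelled WT, and a filter of at least 1 FPKM, which leaves it out, has 7 of the list falling. *Sema4a*, a semaphorin that costimulates T cells, fell by 1.28 on the log2 scale, from 11.9 ± 0.479 to 4.61 ± 0.161 FPKM (adjusted p = 6.81e-05). *Pvr*, which encodes CD155, the ligand shared by TIGIT and DNAM-1, fell by 1.23, from 11.0 ± 0.610 to 4.43 ± 0.455 FPKM (adjusted p = 0.000216). *Cd48*, a ligand of CD2 and of the natural killer cell receptor 2B4, rose by 1.14 on the log2 scale, from 45.1 ± 6.10 to 99.7 ± 0.907 FPKM (limma, adjusted p = 0.000345). The libraries of each of these genes were apart without overlap. *Pirb*, an inhibitory receptor for MHC class I, rose by 1.04, from 23.9 ± 1.42 to 49.8 ± 5.04 FPKM (adjusted p = 0.000412), and *Ceacam1*, an adhesion molecule with inhibitory signalling, rose by 0.73, from 1.11 ± 0.158 to 2.16 ± 0.111 FPKM (adjusted p = 0.0039). The other 5 that fell were *Tnfsf14*, *Cd47*, *Lgals3*, *Tnfsf9* and *Cd200*, by 0.94 to 0.37 on the log2 scale. Of these, *Cd47* lost its call with no filter (adjusted p = 0.0613) and without WT 1 (0.0633) or WT 2 (0.0535), and *Cd200* with no filter (0.0589) and without WT 1 (0.0786), KO 1 (0.078), KO 2 (0.12) or KO 3 (0.0773). *Cd70* and *Fgl1* were listed at 0 in every library, *Vtcn1* and *Btn1a1* at 0 in those labelled WT, and *Btn2a2* at 0 in those labelled KO, with no value above 0.0217 FPKM in the remaining libraries of the last 3.

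**Figure D5:**
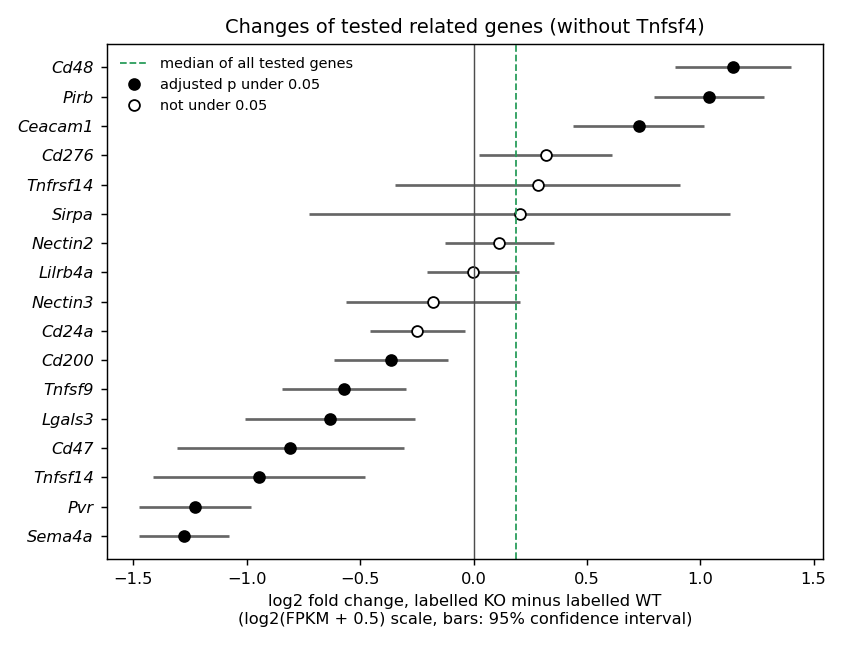
Log2 fold change of the tested genes of the related list other than *Tnfsf4*, labelled KO minus labelled WT, with 95% confidence intervals on the log2(FPKM + 0.5) scale. Filled points have an adjusted p-value under 0.05, with *Cd48*, *Pirb* and *Ceacam1* on the right and *Sema4a* and *Pvr* farthest left, and the interval of *Sirpa* is wide because WT 3 stood at 137.3 FPKM beside 49.4 and 52.4 FPKM in WT 1 and 2.

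The T-cell receptors that these ligands bind were near or at 0, with the exception of *Cd28*. *Pdcd1* (PD-1) was listed at 0 in every library, as were the T-cell genes *Cd3d* and *Cd2*, and *Ctla4*, *Icos* and *Cd40lg* did not exceed 0.0793 FPKM in any library. Of the 13 T-cell markers and receptors, 11 stayed under 0.5 FPKM in every library. The list summed to 3.45 to 4.06 FPKM in the libraries labelled WT and to 12.98 to 14.6 FPKM in those labelled KO, nearly all of it from *Cd28* and *Cd4*. Markers of B cells summed to 5.59 to 7.39 and to 19.97 to 21 FPKM, with *Blk* at 0 throughout. In that list 3 of the 4 tested genes were higher, beside 27.1% of all tested genes. One of them, *Ighm*, reached the minimum for the test only through the libraries labelled KO (mean 9.88 FPKM, beside 0.247 FPKM under the WT label). Markers of dendritic cells, which carry many of the same ligands, summed to 22.9 to 34.1 and to 46.0 to 77.3 FPKM, nearly all of it *Fscn1*, the only one tested, with *Flt3* at 0 throughout. Below the minimum for the test, 4 of these markers had lower means under the KO label, without overlap. They were *Clec9a* (0.541 to 0.053 FPKM), *Xcr1* (0.271 to 0.0757), *Ccl22* (0.374 to 0.0372) and *Ccr7* (0.0834 to 0). *Zbtb46* was higher without overlap (0.113 to 0.306 FPKM). These means were near or below 0.5 FPKM. Beside them, 51.9% of all tested genes had no overlap in either direction, and no such share was computed for genes below the minimum. The part of T cells, B cells and dendritic cells in the results was not tested.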

How the data were processed

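RNA-seq values of 6 libraries of BMDMs were used, 3 labelled WT and 3 labelled KO. The authors deposited FPKM per gene for 55335 mouse Ensembl identifiers. The submitters' processing notes name fastp 0.17.1, HISAT2 2.1.0, DESeq2 1.18.1 and R 3.4.3, whereas the counting tool, the annotation, the genome build and the strand setting are not given in the sources used here. The labels and the methods name different extraction reagents, library kits and sequencers. FPKM is scaled to library size, so changes in abundant genes shift all others, and a listed 0 can be a failed estimate. The values of a library do not add up to a fixed total, and their sums ran from 302532 (WT 2) to 340717 (WT 3).

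Identifiers were matched to GENCODE M21 (55154 of 55335, 99.7%). Depth was read from the steps of low values in 34186 genes with 1 transcript. Only 39.6% to 43.5% of these values lay within 0.1 of a whole multiple, so reads were not recovered and no count test was run. limma 3.58.1 in R 4.3.3 (lmFit, eBayes with trend, two-sided) was run on log2(FPKM + 0.5) for the 13367 genes that averaged 0.5 FPKM or more, with Benjamini-Hochberg adjustment over all of them, and was tested on simulated data. Ratios were compared by exact permutation tests in Python 3.11.15 with scipy 1.17.1. Of 6 planned pairs, 5 gave a ratio.

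The members and gene lists were chosen with earlier results of these data known. Named genes are all members, the 3 largest rises and falls of the related list whose groups did not overlap, those of its genes at 0 throughout a group, tested relatives and neighbours, markers at 0 in every library, and *Cd177*. *Cd14*, *Fcgr1*, *Ly6g*, *Cd28*, *Cd4*, *Ctla4*, *Icos*, *Cd40lg*, *Fscn1*, *Sirpa* and the other related genes that fell were named after their values were seen. So were *Adgre1*, *Mertk*, *C1qa*, *Lyz2*, *Cxcr2*, *Cebpe*, *Ighm*, *Clec9a*, *Xcr1*, *Ccl22*, *Ccr7* and *Zbtb46*.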

Additional observations from a re-analysis of the deposited data

How the results depend on the processing

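Each member kept the direction of its difference wherever it was tested under the 19 alternatives, which changed the pseudocount, the filter, the scaling between libraries, the variance estimate, the replicate block, the threshold and the libraries included. Between 4 and 6 members fell, the 6 under scaling by the median of ratios, where *Cd80* passed (-0.31, adjusted p = 0.0413 with limma). Of the 2 members that rose, 1 was left under a filter of at least 5 FPKM, because *Icosl* is below it, and 1 under the threshold of the study's methods (more than 2-fold and p under 0.05 without adjustment), because *Vsir* changed by less. The median log2 fold change of the tested members was -0.89 with no filter, which adds *Pdcd1lg2*, -1.30 under scaling by the median of ratios and -1.18 under upper-quartile scaling. The log2 ratio of *Cd40* to *Cd86* turned from -0.50 to 0.20 with a pseudocount of 0.5. Of the related genes, 8 fell, but 5 did so with no filter, 3 under the study's threshold and 5 at an adjusted p under 0.01. Each of these counts includes *Tnfsf4*. When 1 library was left out, 4 to 7 fell. The count of 4 was without WT 1, where *Cd47*, *Cd200* and *Lgals3* lost their calls and *Tnfsf4* was below the filter. *Tnfsf4* was below it without WT 2 or WT 3 as well.

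Same-numbered libraries of the groups had correlated deviations of 0.12, 0.04 and 0.26, and not every library correlated best with its own number, so the numbers were not taken to pair them. With the replicate number as a replicate block, 2 members rose and 5 fell, as without it, *Cd200r1* had an adjusted p of 0.063, 8 related genes fell and 4 rose (*Cd276* was added), the relative *Lgals8* passed (-0.41, adjusted p = 0.012), and the calls over all genes went from 3619 to 4253 higher and from 1408 to 1681 lower.

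With 3 libraries a group, an exact permutation test cannot go below 0.1, and no ratio passes a threshold of 0.05 by design. The table holds no counts, and no counting interval is given for low genes such as *Pdcd1lg2* and *Cd40*.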

Other observations

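*Cd28*, which encodes the receptor of CD80 and CD86 on T cells, was listed at 1.77, 1.68 and 1.62 FPKM in WT 1, 2 and 3 and at 8.39, 8.64 and 7.77 FPKM in KO 1, 2 and 3. It rose by 2.00 on the log2 scale (limma, adjusted p = 1.62e-05), with each library labelled KO above each labelled WT. *Cd4*, the coreceptor of helper T cells, was at 2.09, 1.75 and 1.43 FPKM in WT 1, 2 and 3 and at 6.01, 5.59 and 5.07 FPKM in KO 1, 2 and 3 (log2 fold change 1.43, adjusted p = 0.000376). The CD3 chain genes *Cd3d*, *Cd3e* and *Cd3g*, which define T cells, did not exceed 0.045 FPKM in any library. *Cd28* and *Cd4* were chosen after their values were seen.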
